A study of Mus musculus with 6 samples.

Results

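Synaptic vesicles carry a small set of abundant membrane proteins, and 9 mouse genes for such proteins were followed here, taken by symbol from the 55357 genes of the count files. They are the SV2 glycoproteins *Sv2a*, *Sv2b* and *Sv2c*, their relative *Svop*, the tetraspan proteins *Syp* and *Synpr*, and the synapsins *Syn1*, *Syn2* and *Syn3*. The list was chosen with the difference between sh*Pla2g4e* and shCtrl cultures in view, so the differences in these genes are given as a description. Where a gene is said to have passed the threshold of the fit over all genes or not, this places it among them and is no independent test of the difference. All 9 genes passed the filter on low counts.

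The study asked what *Pla2g4e*, a phospholipase A2 family gene, does in developing mouse neurons. RNA was sequenced from wild type primary cultures of cortex and hippocampus of C57BL/6N embryos, transduced with lentivirus at DIV4 (days in vitro) and collected at DIV14. Of the 6 libraries, 3 came from cultures given a scrambled short hairpin RNA (shCtrl, n = 3) and 3 from cultures given the hairpin sh2 against *Pla2g4e* (sh*Pla2g4e*, n = 3). Both groups carried the same vector, pLVTHM, and the virus dose was set to lower the *Pla2g4e* transcript only in part. A single hairpin sequence was sequenced, no library without virus was analysed here, and the labels do not say whether the replicates were separate cultures, so the spread given here may be technical. Effects of losing *Pla2g4e* and effects of the hairpin sequence itself cannot be told apart in this design.

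As background, SV2 proteins are transporter-like glycoproteins of the vesicle membrane that act in calcium-dependent exocytosis and help retrieve synaptotagmin. SV2A is the binding site of the antiepileptic drug levetiracetam, and SV2 proteins serve botulinum neurotoxin A as receptors. Synaptophysin (*Syp*) and synaptoporin (*Synpr*) span the vesicle membrane and bind the vesicle SNARE synaptobrevin, and synapsins hold vesicles in a reserve pool and let go of them when phosphorylated.

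The guide strand of sh2 and the places in these 9 genes that pair with its seed are shown first, because *Sv2a*, *Sv2b* and *Sv2c* share one of them, and of these only *Sv2c* passed the threshold for a changed gene, with no test of the difference between them. The seed, bases 2 to 8 of a guide, is the stretch by which a small RNA recognises many transcripts. In the lines that follow the capitals mark the seed in the guide and the paired 7 bases in the transcript. Each transcript line has 11 bases on either side of these. All lines read 5′ to 3′, the transcript stretches on the coding strand and the guide antisense to its target.
sh2 guide: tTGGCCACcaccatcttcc
Sv2a, coding: cctccgggagtGTGGCCAtggccgcttcc
Sv2b, coding: cattgatgagtGTGGCCAtgggcgcttcc
Sv2c, coding: aatccaagagtGTGGCCAcggccgtttcc
Sv2c, 3′ UTR: tgtatagaaagGTGGCCAagtatcagaac
Syn2, coding: ttgctcagatgGTGGCCAtcttcaagaca
Syn3, coding: acagcagctttGTGGCCAacctgcccaat

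The SV2 genes carried the coding match at one homologous place, in exon 2 of 13 of each, starting at the second base of codon 159 in *Sv2a* (GRCm38 chr3:96185461-96185467, plus strand), of codon 102 in *Sv2b* (chr7:75206230-75206236, minus strand) and of codon 145 in *Sv2c* (chr13:96088360-96088366, minus strand). Over the 29 bases shown, *Sv2a* shared 23 with *Sv2b* and 23 with *Sv2c*, and *Sv2b* shared 22 with *Sv2c*. *Sv2c* alone among the 9 genes had a match in an annotated 3′ UTR, starting at base 85 after the stop codon in the last exon (chr13:95961189-95961195, minus strand). It was followed by A, which pairs with base 1 of the guide, and 12 of the 19 guide bases faced a complementary base there, against 8 to 11 at the coding matches. Of the 2 coding transcripts of *Sv2c* with a 3′ UTR, 1 held this match. *Syn2* had a coding match in exon 5 (chr6:115244158-115244164, plus strand) and *Syn3* in exon 2 (chr10:86467244-86467250, minus strand), whereas the longest coding transcripts of *Syp*, *Synpr*, *Syn1* and *Svop* had none in coding sequence or 3′ UTR. Coding matches were sought only in the longest transcript of each gene. Its coding sequence had 732 bases in *Syn3* and 1440 in *Syn2*, against 1740 and 1761 bases in their longest coding sequences. Coding bases found only in other transcripts were not searched.

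Such 7-base matches are common. The longest coding transcript held one in its 3′ UTR in 13.4% of the 15656 tested genes with a 3′ UTR, and in 2.7% the match was followed by A. In its coding sequence 25.3% of 15816 genes held one. The 3′ UTR of *Sv2c* is long, at 6686 bases, and among the 439 genes whose 3′ UTR was no shorter than 0.8 times that length and no longer than that length divided by 0.8, 39.4% held a match. A match describes the letters only, and whether the guide acted on any of these transcripts was not tested.

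*Pla2g4e* itself was measured at 38.0, 35.1 and 35.4 CPM (reads relative to the library total, scaled by the TMM method) in shCtrl and at 21.8, 14.1 and 18.7 CPM in sh*Pla2g4e*, lower in every library labelled sh*Pla2g4e* than in every shCtrl library. Its log2 fold change was −0.99 (SE 0.13). Between 17054717 and 23570180 reads were counted per library, and the 9 vesicle genes took 0.251% to 0.297% of them. The least read of the 9, *Syn3*, had 262 to 506 reads per library and *Syp* 10769 to 15402.

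By level per exon length in shCtrl (RPKM, the TMM-scaled CPM per kilobase), the 9 genes spanned from abundant to rare transcripts. *Syn1* came first at 157 ± 20.9 RPKM (SD, n = 3), and *Syp* followed at 130 ± 14.4, and their libraries overlapped. *Sv2a* stood at 100.1 ± 13.5, *Syn2* at 72.9 ± 6.98 and *Sv2b* at 44.3 ± 3.59 RPKM. *Svop* at 39.4 ± 4.95 RPKM overlapped *Sv2b*. Far below them were *Sv2c* at 7.18 ± 1.05, *Synpr* at 4.95 ± 0.41 and *Syn3* at 1.22 ± 0.27 RPKM. Apart from the overlapping pairs *Syn1* with *Syp* and *Sv2b* with *Svop*, the libraries of neighbours in this order did not overlap. In sh*Pla2g4e* the order was the same but for *Synpr* (7.76 ± 0.90 RPKM) and *Sv2c* (2.27 ± 0.28 RPKM), which had changed places.

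**Figure D1:**
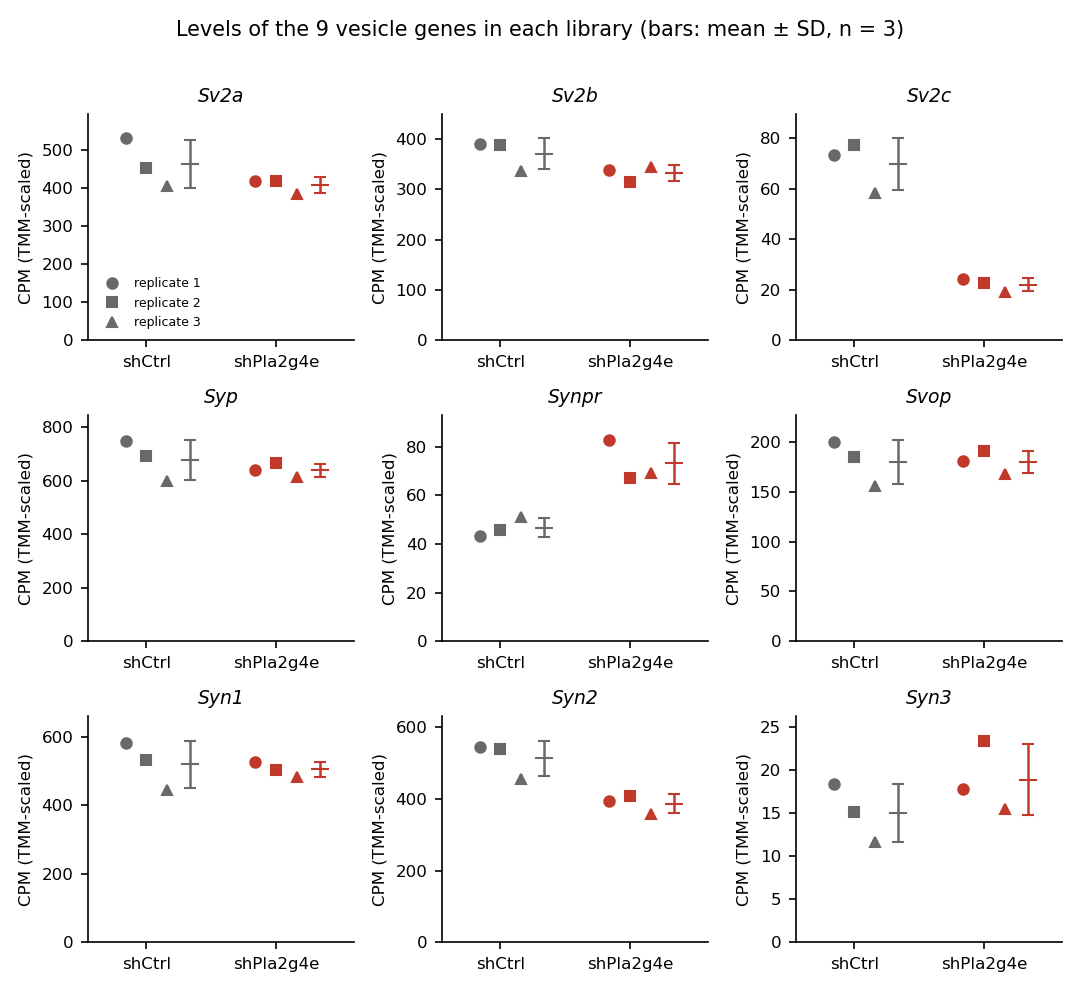
Level of each of the 9 genes in CPM (y axis, from 0, TMM-scaled) in the 3 shCtrl libraries (grey) and the 3 sh*Pla2g4e* libraries (red), with symbols for replicates and bars for mean ± SD. The groups stand apart for *Sv2c*, *Synpr* and *Syn2* and overlap for the other 6 genes, and shCtrl replicate 3 is the lowest shCtrl library for 8 of the 9.

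*Sv2c*, the SV2 form best known from the basal ganglia, was the gene that differed most. It lies on chromosome 13 (chr13:96091102-96269085, minus strand; whole genes are placed in GRCm39, the build of the counts) and its exons overlap those of no other gene in the counting annotation. It was read at 73.4, 77.4 and 58.2 CPM in shCtrl and at 24.3, 22.7 and 19.1 CPM in sh*Pla2g4e*. Every sh*Pla2g4e* library lay below every shCtrl library, the highest at 24.3 CPM and the lowest shCtrl library at 58.2 CPM. The mean was 31.6% of that in shCtrl, a log2 fold change of −1.66 (SE 0.12).

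*Sv2a*, the widely expressed SV2 form (chr3:96088467-96102837, plus strand), was read at 531, 454 and 407 CPM in shCtrl and at 420, 420 and 385 CPM in sh*Pla2g4e*. The groups overlapped, and the log2 fold change of −0.18 (SE 0.09) did not pass the threshold. By replicate number *Sv2a* was lower in all 3 pairs, and with a replicate block the SE was 0.062 and the threshold was still not passed. The value was −0.08 without shCtrl replicate 1 and −0.27 without shCtrl replicate 3. *Sv2b*, a form of many excitatory neurons (chr7:74764642-74959010, minus strand), was read at 389, 388 and 336 CPM in shCtrl and at 338, 315 and 343 CPM in sh*Pla2g4e*. These groups overlapped as well, with a log2 fold change of −0.16 (SE 0.083), which was −0.08 with the library size alone. *Svop*, a vesicle protein of the same transporter fold (chr5:114164971-114229631, minus strand), had the same mean in both groups, 180 ± 22.5 and 180 ± 11.3 CPM, and the sign of its log2 fold change of 0.00 (SE 0.09) turned with the scaling. Its close paralog *Svopl* was at most 0.485 CPM in any library.

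Ratios within a library do not depend on the scaling between libraries. *Sv2a* was 15.1, 12.3 and 14.6 times *Sv2c* per exon length in shCtrl and 36.1, 38.7 and 42.2 times in sh*Pla2g4e*. *Sv2a* to *Sv2b* was 2.26 ± 0.18 in shCtrl and 2.23 ± 0.19 in sh*Pla2g4e* (SD, n = 3), with overlapping libraries. The share of *Sv2c* in the summed RPKM of the family was 4.74% ± 0.44 in shCtrl and 1.74% ± 0.16 in sh*Pla2g4e*. *Sv2a* made up 66.0% ± 1.83 and 67.7% ± 1.75 of the family, so the SV2 transcripts as a sum were mostly *Sv2a* and *Sv2b* in both groups. The coding sequences of the family were 67.0% to 68.8% identical in pairwise alignments.

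Genes grouped by where a seed match lay are given with the share of differentially expressed genes in each (DEGs, adjusted p under 0.01 by edgeR's quasi-likelihood test over 21876 genes). Of the 422 genes with a 3′ UTR match followed by A, the class of *Sv2c*, 25.1% were down-regulated DEGs and 1.9% up-regulated, and the median log2 fold change was −0.18. The 1681 genes with a 3′ UTR match not followed by A held none of the vesicle genes followed here. Of these 1681, 15.5% were down-regulated and 1.55% up-regulated, and the median was −0.14. Of the 3363 genes with a match in the coding sequence and none in the 3′ UTR, the class of *Sv2a*, *Sv2b*, *Syn2* and *Syn3*, 5.74% were down-regulated and 3.06% up-regulated, and the median was −0.04. Of the 10190 genes without a match in either, the class of *Syp*, *Synpr*, *Syn1* and *Svop*, 2.89% were down-regulated and 3.36% up-regulated, and the median was 0.04. The differences between classes were not tested. The length of the 3′ UTR, which goes with having a match, was not equalised between these classes.

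*Syp*, the most used marker of presynaptic vesicles (chrX:7504710-7519495, plus strand), was read at 747, 692 and 598 CPM in shCtrl and at 639, 665 and 615 CPM in sh*Pla2g4e*. All sh*Pla2g4e* libraries lay within the range of shCtrl, and the log2 fold change was −0.09 (SE 0.09), with −0.01 without shCtrl replicate 1 and −0.17 without shCtrl replicate 3. On the opposite strand *Gm14703*, at 1.57 to 2.49 CPM, covers 16.8% of its exon bases, and no strand option is recorded for the counting.

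*Synpr*, the synaptophysin relative found at mossy fibre and some interneuron terminals, went the other way. It lies on chromosome 14 (chr14:8853423-9184983, minus strand) and no other gene's exons overlap its own. It was read at 43.5, 45.6 and 51.0 CPM in shCtrl and at 83.0, 67.4 and 69.3 CPM in sh*Pla2g4e*. Every sh*Pla2g4e* library lay above every shCtrl library. The mean was 157% of that in shCtrl, a log2 fold change of 0.65 (SE 0.097). Per exon length *Syp* was 31.1, 27.5 and 21.3 times *Synpr* in shCtrl and 14.0, 17.9 and 16.1 times in sh*Pla2g4e*.

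Among the other genes of the physin and gyrin family, *Syngr3*, which encodes a neuronal synaptogyrin, was the one that passed the test. It fell from 243, 220 and 202 CPM in shCtrl to 134, 127 and 125 CPM in sh*Pla2g4e*, a log2 fold change of −0.78 (SE 0.084, edgeR adjusted p = 1.73e-05). Its share of the family's summed RPKM was 26.2% ± 0.48 and 17.7% ± 0.15, while that of *Synpr* was 1.23% ± 0.24 and 2.20% ± 0.20. *Syngr1*, the most abundant of the family, was at 764 ± 102 and 716 ± 33.1 CPM and its groups overlapped. *Sypl1* (listed as *Sypl*) and *Syngr2*, both of wider tissue use, had log2 fold changes of 0.25 (SE 0.089) and 0.25 (SE 0.16) and did not pass the test, and *Sypl2* and *Syngr4* were at most 1.26 and 0.462 CPM. The longest transcripts of *Syngr3* and *Syngr1* each had 1 seed match in the 3′ UTR, not followed by A, a class of 1681 genes of which 15.5% were down-regulated DEGs, and those of *Syngr2* and *Sypl* had none.

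**Figure D2:**
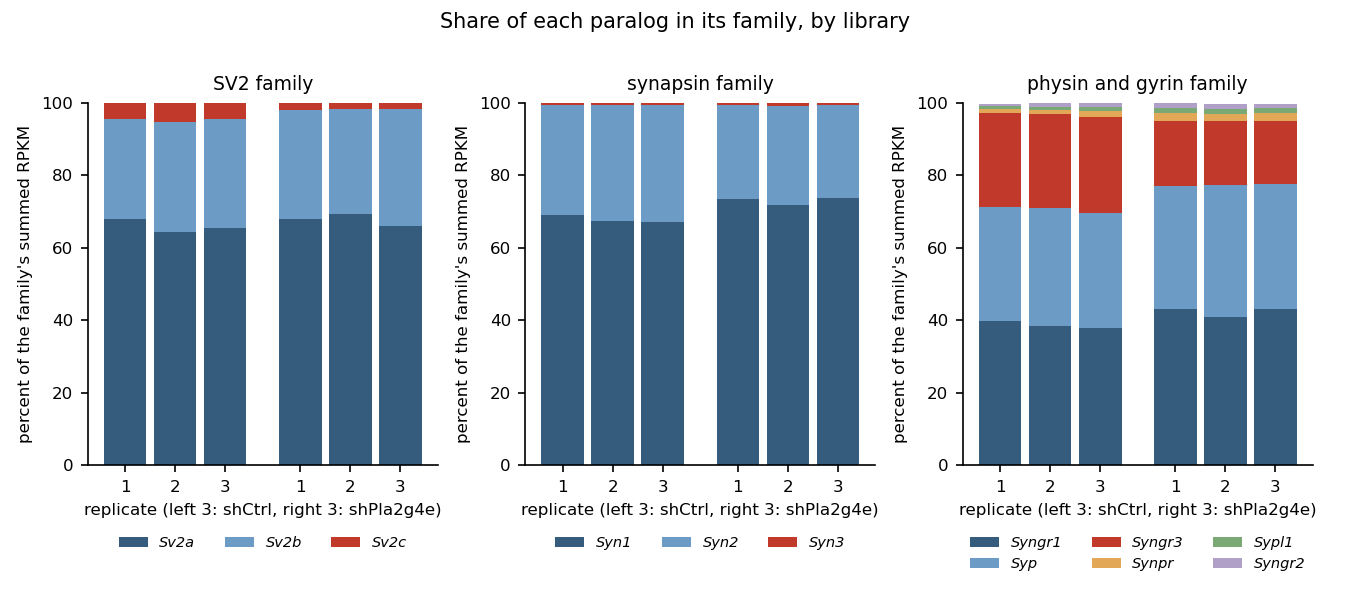
Percent of the summed RPKM of the family (y axis) held by each paralog in each library, for the SV2, synapsin, and physin and gyrin families, with the 3 shCtrl libraries at the left of each panel and the 3 sh*Pla2g4e* libraries at the right. *Sv2c* goes from 4.74% to 1.74% of its family, *Syn2* from 31.6% to 26.2% and *Syngr3* from 26.2% to 17.7%, while *Sypl2* and *Syngr4* are too low to draw.

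*Syn2*, a synapsin of both excitatory and inhibitory terminals (chr6:115111863-115258967, plus strand), was read at 543, 539 and 456 CPM in shCtrl and at 394, 408 and 358 CPM in sh*Pla2g4e*. Every sh*Pla2g4e* library lay below every shCtrl library. The mean was 75.4% of that in shCtrl, a log2 fold change of −0.41 (SE 0.089). This gene stood close to the threshold for a DEG and did not pass it without shCtrl replicate 1 (−0.36), shCtrl replicate 2 (−0.37), sh*Pla2g4e* replicate 1 (−0.42) or sh*Pla2g4e* replicate 3 (−0.35). Over all alternative settings it kept its call in 11, among them the replicate block (−0.40, SE 0.060), and lost it in 6.

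*Syn1*, first of the 9 genes per exon length but below *Syp* in CPM (chrX:20726750-20787243, minus strand), was read at 581, 532 and 445 CPM in shCtrl and at 527, 503 and 483 CPM in sh*Pla2g4e*. All sh*Pla2g4e* libraries lay within the range of shCtrl, and the sign of its log2 fold change of −0.04 (SE 0.09) turned when the library size alone was used for scaling. *Syn1* was 2.28, 2.10 and 2.08 times *Syn2* per exon length in shCtrl and 2.85, 2.63 and 2.88 times in sh*Pla2g4e*, without overlap. The share of *Syn1* in the summed synapsin RPKM was 67.9% ± 1.05 in shCtrl and 73.0% ± 1.08 in sh*Pla2g4e*, and that of *Syn2* was 31.6% ± 1.10 and 26.2% ± 0.94.

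*Syn3*, the synapsin best known from young neurons (chr10:85890989-86334760, minus strand), was read at 18.3, 15.1 and 11.6 CPM in shCtrl and at 17.7, 23.4 and 15.5 CPM in sh*Pla2g4e*. The groups overlapped, and the log2 fold change was 0.33 (SE 0.17). Leaving out sh*Pla2g4e* replicate 2 gave 0.15, and leaving out shCtrl replicate 1 or 3 gave 0.50 or 0.18. It varied most between libraries of a group, with an SD of 22.3% of the mean in shCtrl and 21.6% in sh*Pla2g4e*. The coding sequences of the synapsins were 69.6% to 74.2% identical.

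The synapsin genes are known for the tissue inhibitors of metalloproteinases that lie within them on the opposite strand, *Timp1* in *Syn1*, *Timp4* in *Syn2* and *Timp3* in *Syn3*. Exons of *Timp3* covered 14.1% of the exon bases of *Syn3*, those of *Timp4* covered 1.28% of *Syn2*, and those of *Timp1* covered none of *Syn1*. Reads on such shared bases count for neither gene in a counting that ignores strand. *Timp3* was at 65.6 ± 7.92 CPM in shCtrl and 55.4 ± 8.89 CPM in sh*Pla2g4e* with overlapping groups. *Timp4* was at 16.3 ± 1.08 and 11.6 ± 2.7 CPM, with a log2 fold change of −0.50 (SE 0.16), and *Timp1* at 2.12 ± 0.85 and 3.19 ± 0.61 CPM. None of these 3 passed the test in edgeR, limma or DESeq2, and 2 were lower at an unadjusted p under 0.05 in edgeR, as were 12.9% of all genes, with 12.8% higher. *Usp30* covered 3.53% of the exon bases of *Svop* at 51.5 to 60.9 CPM, *Araf* 0.273% of *Syn1* at 183 to 228 CPM, and 1500012K07Rik 0.561% of *Sv2b* at no more than 0.502 CPM.

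**Figure D3:**
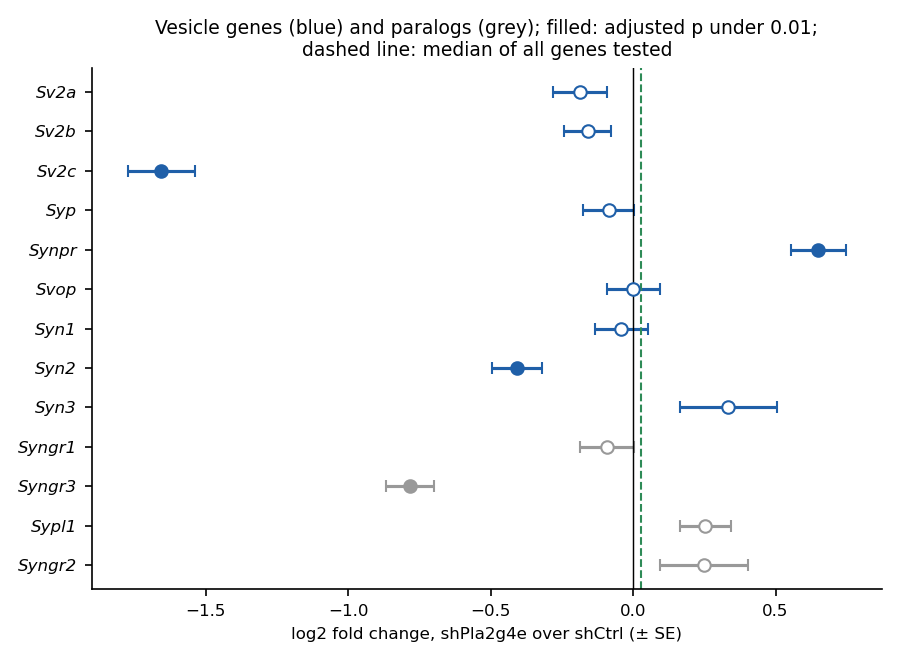
Log2 fold change of sh*Pla2g4e* over shCtrl (x axis) with its SE for the 9 genes (blue) and the 4 paralogs of the physin and gyrin family above 5 CPM (grey), with filled points for DEGs and a dashed line at the median of all genes tested, 0.03. *Sv2c* at −1.66, *Syngr3* at −0.78 and *Syn2* at −0.41 lie to the left and *Synpr* at 0.65 to the right. *Svop* and *Syn1* lie at 0.00 and −0.04, and their sign turned with the scaling.

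Over the 9 genes, 2 were lower and 1 was higher at the DEG threshold, where of all 21876 genes tested 6.49% were DEGs (4.00% lower and 2.48% higher). Since the genes were chosen on this comparison, nothing is read from that count. The groups did not overlap in 3 of the 9 genes and in 30.0% of all genes. The median log2 fold change of the 9 was −0.09, and that of all genes tested was 0.03. Without shCtrl replicate 1 the median of the 9 was −0.01, and without shCtrl replicate 3 it was −0.17. With the library size alone used for scaling it was −0.009, and the median of all genes was 0.10.

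The genes whose level over the 6 libraries was most like that of *Sv2c*, among 10907 others averaging 3 or more in log2 CPM, were *Itfg1*, *Megf9* and *Ambra1*. Their log2 CPM correlated with that of *Sv2c* at a Pearson r of 0.999 each, but their own log2 fold changes were −0.35, −0.37 and −0.22. For *Synpr* the closest were *Caprin2* (r = 0.999), *Utrn* (r = 0.998) and *Eif3j1* (r = 0.997), with log2 fold changes of 0.29, 0.28 and 0.33. The libraries fall into 2 groups, so these correlations mostly describe the step between groups, which 58 genes shared with *Sv2c* at an r over 0.99.

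Other proteins of the vesicle membrane were taken from a list of 45 genes, also drawn up with earlier results known, and all were tested. Of these, 6 fell and 2 rose, against 4.00% and 2.48% of all genes, and the median log2 fold change was −0.08. The transporters of the list held 4 of the 8 DEGs. *Slc17a7* (VGLUT1), which loads glutamate in most cortical excitatory neurons, fell from 842, 744 and 648 CPM to 312, 290 and 297 CPM, a log2 fold change of −1.31 (SE 0.094, edgeR adjusted p = 3.69e-07). *Slc17a6* (VGLUT2) rose from 57.4, 51.3 and 33.1 CPM to 94.2, 109 and 62.1 CPM, a log2 fold change of 0.91 (SE 0.18, adjusted p = 0.00388 by edgeR). *Slc32a1* (VGAT), the transporter of inhibitory terminals, fell from 63.9, 58.1 and 60.5 CPM to 39.4, 39.2 and 38.6 CPM (log2 fold change −0.64, SE 0.082, edgeR adjusted p = 9.19e-05). The vesicular zinc transporter *Slc30a3* fell by 0.59 on the log2 scale.

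The remaining DEGs of the list were *Syngr3*, *Scamp5* and *Dnajc5*, the last encoding the chaperone cysteine string protein, which fell by 0.78, 0.53 and 0.57 on the log2 scale, and *Syt12*, a synaptotagmin that does not bind calcium, which rose by 0.63. *Slc17a6* lost its call with DESeq2 and with the robust fit, where *Syt12* was the 1 rise. The count of 2 rises also fell when some libraries were left out, to 0 without sh*Pla2g4e* replicate 1 and to 1 without shCtrl replicate 2, shCtrl replicate 3 or sh*Pla2g4e* replicate 2. With the replicate block 9 genes of the list were lower and 3 higher, with no share of all genes given for that fit. No DEG was found by edgeR, limma or DESeq2 among the 8 genes of the proton pump. Of these 8, 1 was lower and 1 higher at an unadjusted p under 0.05 in edgeR, against 12.9% and 12.8% of all genes. The calcium sensor *Syt1* (−0.16, SE 0.092) and the vesicle SNARE *Vamp2* (−0.03, SE 0.083) did not pass the test.

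**Figure D4:**
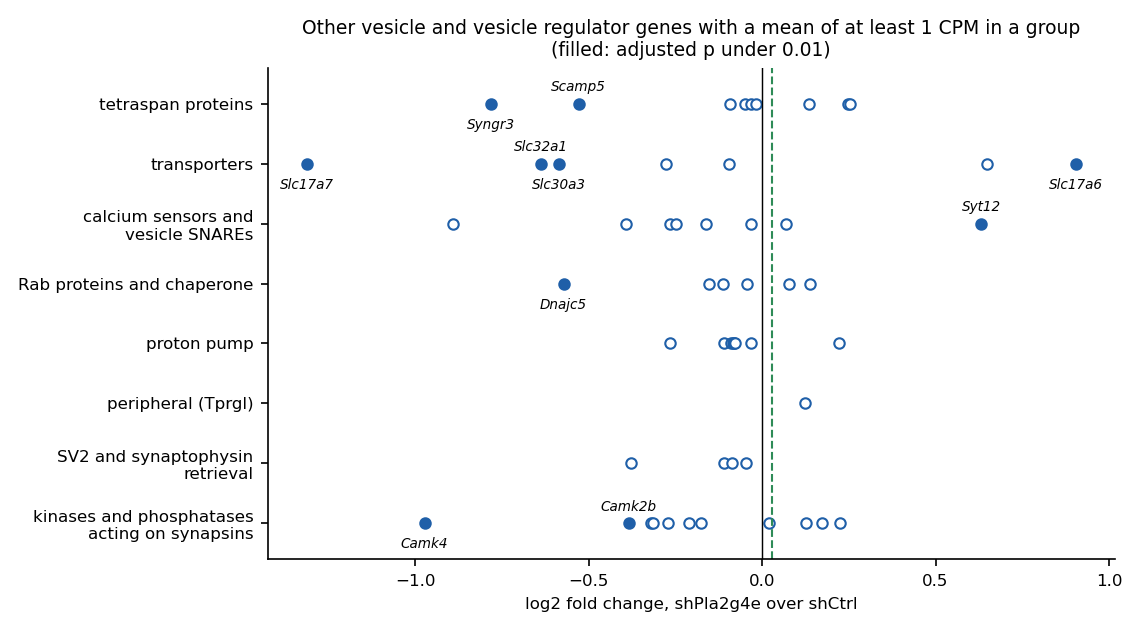
Log2 fold change of sh*Pla2g4e* over shCtrl (x axis) for 54 other genes of the vesicle membrane and their regulators, by class, with DEGs filled and named and the median of all genes tested as a dashed line at 0.03. The 6 genes under 1 CPM in both groups are left out. *Slc17a7* at −1.31 lies farthest to the left and *Slc17a6* at 0.91 farthest to the right.

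Regulators of these proteins formed a list of 15 genes, of which 2 fell and 0 rose in edgeR's test, against 4.00% and 2.48% of all genes. The lower count was 3 by limma and 5 by DESeq2, which called 4.23% and 5.55% of all genes lower. The higher count was 0 by both, against 2.30% and 3.14%. At an unadjusted p under 0.05 in edgeR, 8 were lower and 1 higher, against 12.9% and 12.8% of all genes. The adaptors that retrieve SV2-bound and synaptophysin-bound cargo held no DEG among 4 genes in edgeR, limma or DESeq2 and 1 lower at an unadjusted p under 0.05 in edgeR, with *Ston2*, the adaptor stonin 2, at −0.38 (SE 0.13) and *Snap91*, the clathrin assembly protein AP180, at −0.09 (SE 0.094). Among 11 kinases and phosphatases that act on synapsins, *Camk4* fell from 111, 118 and 101 CPM to 65.5, 46.8 and 55.8 CPM, a log2 fold change of −0.97 (SE 0.11, edgeR adjusted p = 2.29e-05). *Camk2b*, a subunit of CaMKII, fell by 0.38 on the log2 scale (SE 0.078, edgeR adjusted p = 0.0038). The longest transcripts of *Camk4* and *Camk2b* had no seed match, and of the transporters *Slc17a7* had 1 in the 3′ UTR, not followed by A, and 2 in the coding sequence, and *Slc32a1* had 4 in the coding sequence. *Camk2a*, the other main subunit, was at 1051 ± 101 CPM in shCtrl and 1065 ± 174 CPM in sh*Pla2g4e*.

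Marker sums are given beside these levels, and for every marker list the share of all genes to set against its counts of DEGs in edgeR is 4.00% lower and 2.48% higher. For limma these shares are 4.23% and 2.30%, for DESeq2 5.55% and 3.14%, and at an unadjusted p under 0.05 in edgeR 12.9% and 12.8%. Summed over the 9 genes, the level was 3125, 2925 and 2517 CPM in shCtrl and 2623, 2614 and 2456 CPM in sh*Pla2g4e*. The sum over 9 astrocyte markers was 2910, 3278 and 3735 CPM in shCtrl and 2141, 1978 and 3168 CPM in sh*Pla2g4e*, so in both groups replicate 3 was highest in astrocyte markers and lowest in the vesicle sum. The share of reads on mitochondrial genes was also highest there, at 2.75%, 2.89% and 3.62% in shCtrl and 3.53%, 3.08% and 3.79% in sh*Pla2g4e*. Of the 9 astrocyte markers, 3 fell (*Aqp4*, *Gja1* and *Slc1a2*) and 0 rose in edgeR. The lower count was 3 by limma and 2 by DESeq2 and the higher count 0 by both, and at an unadjusted p under 0.05 in edgeR 5 were lower and 1 higher, against 12.9% and 12.8% of all genes. The sum over 11 neuron markers was 5196 to 5497 CPM in shCtrl and 4647 to 4974 CPM in sh*Pla2g4e*, with 3 lower (among them *Tubb3* at −1.68 and *Map2* at −0.45) and 2 higher (among them *Nefm* at 0.68). The part of cell makeup and of the mitochondrial share in the levels of the vesicle genes was not tested, and fewer cells of a type and less RNA per cell cannot be told apart in bulk RNA.

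Markers of neuron classes moved in both directions. Of 8 glutamatergic markers, 2 fell (*Slc17a7* and *Neurod6*) and 1 rose (*Slc17a6*), with sums of 2196 to 2383 CPM in shCtrl and 1642 to 1924 CPM in sh*Pla2g4e*. Counting differences of any size, 4 of the 8 were lower and 4 higher. *Slc17a7*, also counted in the vesicle list, had means of 745 CPM in shCtrl and 300 CPM in sh*Pla2g4e*. The difference between the sums lies mostly in this gene. Of 12 GABAergic markers, 2 fell (*Lhx6* and *Slc32a1*) and 2 rose (*Npy* and *Sst*), with sums of 877 to 955 and 841 to 951 CPM. Of 5 genes of dividing cells, 1 fell (*Top2a*; 1 by limma, 2 by DESeq2 and 3 at an unadjusted p under 0.05) and 0 rose in edgeR (0 also by limma, DESeq2 or an unadjusted p under 0.05), with sums of 27.8 to 46.6 and 15.4 to 26.1 CPM. Microglia markers summed to at most 13.4 CPM in any library, 2 of the 9 (*Tmem119* and *Itgam*) were below the filter, and vessel markers summed to at most 77.2 CPM with *Cldn5* at 0 reads in every library. The 8 markers of the oligodendrocyte lineage summed to 522 to 592 CPM in shCtrl and 530 to 658 CPM in sh*Pla2g4e*. Of the 22 genes tested in these last 3 lists, 0 were DEGs by edgeR, limma or DESeq2. At an unadjusted p under 0.05 in edgeR, 4 were lower and 2 higher, against 12.9% and 12.8% of all genes.

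**Figure D5:**
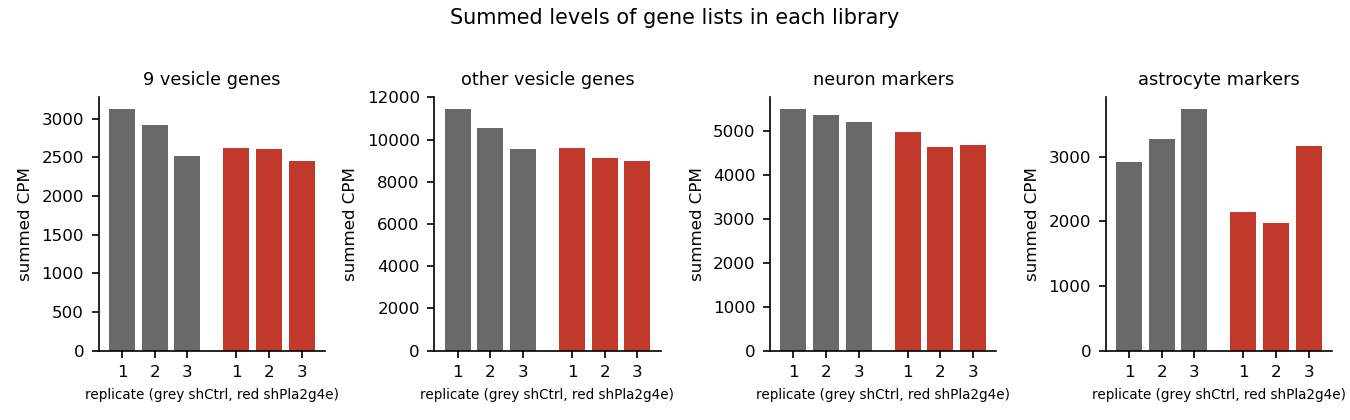
Summed CPM (y axis, from 0) of the 9 vesicle genes, the 45 other vesicle genes, 11 neuron markers and 9 astrocyte markers in each library, with shCtrl in grey and sh*Pla2g4e* in red by replicate number. In both groups replicate 3 has the highest astrocyte sum and the lowest sums of vesicle genes.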

How the data were processed

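RNA-seq data of 3 shCtrl and 3 sh*Pla2g4e* libraries were analysed, grouped by the labels. Raw counts per gene were deposited by the authors without normalization. Per the labels and the methods, polyA RNA was sequenced with a stranded kit, reads were checked with FastQC 0.11.8 and aligned with STAR 2.7.0d, and exon reads were counted with featureCounts 1.6.0. The submitters' processing notes and the files carry GRCm39, while the methods name an older build. The counting command in the file headers sets no option for strand, read pairs, overlaps or multi-mapping reads, so the program's defaults are taken to apply, which ignore strand and leave out reads shared by exons of 2 genes.

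Differential expression used edgeR 4.0.16 in R 4.3.3 (TMM, glmQLFit, glmQLFTest) over the 21876 genes that reached 6 reads in any library, with Benjamini-Hochberg adjustment and a threshold of 0.01. SEs come from the F statistic. The procedure was tested on simulated data. RPKM used the deposited exon lengths, and CPM the TMM factors. Symbols (52081 genes) and transcripts came from GENCODE vM21 (GRCm38), the sh2 sequence from the study's oligo list, and each seed search covered the transcript strand for GTGGCCA. Coding sequences were aligned globally. Alternatives were limma 3.58.1 after voom, DESeq2 1.42.0, other scalings and filters, a robust fit, a replicate block and leaving out each library.

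Libraries of the same number deviated together from their group means, with correlations of 0.392, 0.189 and 0.461 over 10908 genes, so the numbers were taken to pair the libraries. The values printed come from the fit without the pairs, as designed, and the block is an alternative. No 2 libraries differed by less than sampling noise (chi-square per gene of at least 6.03).

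The genes and lists were chosen with earlier results of these data known. Named are the 9 genes, their paralogs, genes overlapping them, *Pla2g4e*, the 3 DEGs with the smallest p of each list, and the 3 genes most correlated with *Sv2c* and with *Synpr*. Beyond this rule, *Slc17a6* in the vesicle list, *Slc30a3*, *Scamp5*, *Dnajc5*, *Syt12*, *Syt1*, *Vamp2*, *Ston2*, *Snap91*, *Camk2a*, *Sst* and markers at or near 0 were named after their values were seen.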

Additional observations from a re-analysis of the deposited data

How the results depend on the processing

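*Sv2c* and *Synpr* kept direction and call in all 17 alternatives, with log2 fold changes of −1.77 to −1.57 and 0.55 to 0.72. *Syn2* kept its direction (−0.48 to −0.33), and the count of 2 lower genes became 1 with the library size alone or with at least 10 reads in every library, the cause not tested, and 1 to 2 with a library left out. *Syn1* turned positive with the library size alone (0.036) and without shCtrl replicate 1 (0.048), ranging from −0.14 to 0.048 with a library left out. *Svop* turned negative with DESeq2 or its size factors in edgeR (both −0.0063) and without shCtrl replicate 3, sh*Pla2g4e* replicate 1 or sh*Pla2g4e* replicate 2, ranging from −0.095 to 0.083 with a library left out. Library size alone moved the median of all genes from 0.03 to 0.10.

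With the replicate block, the pairing left 2 lower genes and 1 higher among the 9 and changed no call of theirs, with a median of −0.08. The share of all genes called in that fit is not given here, so nothing is read from its counts. With the block the other vesicle genes had 9 lower and 3 higher. Their count of 2 higher became 1 with DESeq2 or the robust fit and ranged from 0 to 2 with a library left out, when the lower count ranged from 5 to 7. Of the 15 regulators, 3 fell by limma and 5 by DESeq2. The median of the 9 ranged from −0.17 to −0.01 with a library left out, and among these fits was nearest 0 without shCtrl replicate 1.

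Without division by exon length, the shares in shCtrl and sh*Pla2g4e* became 7.69% and 2.88% for *Sv2c*, 51.2% and 53.5% for *Sv2a*, 2.7% and 4.55% for *Synpr*, 49.5% and 55.5% for *Syn1* and 49.05% and 42.5% for *Syn2*, and 4 of the 9 genes changed rank, since long transcripts then weigh more. With 3 libraries a group, changes smaller than the spread between libraries could not be seen.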
